A study of Oryza sativa with 8 samples.

Results

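Type-A response regulators are the short response regulators of cytokinin signalling in rice, and 9 loci of the family were described here over 4 groups of seedling shoots. The members were every probe set that the deposited annotation paired with exactly 1 of the loci of RR1, RR2, RR3, RR4, RR5, RR6, RR7, RR9 and RR10. This rule found 1 probe set each for 7 of the 9 loci, among 25727 loci paired with a probe set of 1 gene. RR7 (Os07g0449700) and RR10 (Os12g0139400) had no such probe set and have no values here. Of the 7 members, 6 had a mean signal above the level for testing (log2 4.48, the 40th percentile of all probe sets). RR3 did not.

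The groups were the variety Varadan without nitrogen, Varadan with supplemented nitrogen, Prasanna without nitrogen and Prasanna with supplemented nitrogen, with 2 arrays each. All seedlings were germinated for 7 days and grown for 10 days in Yoshida nutrient medium that held nitrogen, then moved to the same medium either lacking nitrogen or supplemented with it, and total RNA came from shoots. No source used here states how long the test media were applied, and the labels give an age of 14 days, less than the protocol's 2 periods together. The labels name no mutant allele or transgene in either variety. Nothing in the labels says whether replicate arrays came from separate plants or pools, so p-values measure only the spread between these arrays, which may be technical.

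Cytokinins are perceived by membrane histidine kinases, which pass a phosphate through histidine phosphotransfer proteins to response regulators. Type-B regulators bind DNA and switch on early response genes, among them the type-A regulators, which carry a receiver domain without a DNA-binding region and damp the pathway as negative feedback. Type-A transcripts are therefore widely read as a record of cytokinin signalling, and in maize and Arabidopsis they are known to rise when nitrate is supplied. The study set varieties of contrasting response to low nitrogen side by side, and the question asked of the family here is how its transcripts stood in nitrogen-starved against nitrogen-fed shoots of each.

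Values are log2 MAS5 signals, in which 1 unit is a doubling, and the brightness of one probe set cannot be set against that of another. Replicate arrays correlated across tested probe sets at a Spearman rho of 0.886 and 0.896 in Varadan and Prasanna without nitrogen and of 0.939 and 0.940 with supplemented nitrogen. The typical SD of a probe set between replicates, as a median, was 0.46 and 0.47 in the no-nitrogen groups and 0.26 and 0.31 in the supplemented groups, in the same order of varieties. In both varieties replicate 1 without nitrogen differed from replicate 2 in a shared direction, at a correlation of 0.46 across probe sets. This does not tell which replicate departed. The counts of members past the threshold are also given without the first no-nitrogen array of both varieties. As a check of the nitrogen labels, the nitrate reductase gene NR1 (Os08g0468100) fell without nitrogen by 2.68 ± 0.20 on the log2 scale (SE; limma adjusted p = 0.0218), and stood at 13.01 to 13.55 on the 4 no-nitrogen arrays against 15.62 to 16.29 on the 4 supplemented ones. NR1 passed no more once any 1 of the 4 supplemented arrays was left out.

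RR9, RR2, RR4 and RR1 had lower signals without nitrogen on every array than on the supplemented arrays of the same variety, and none of the 6 tested members passed the threshold over all probe sets. The average difference of both varieties, no nitrogen minus supplemented nitrogen, was -1.97 ± 0.30 for RR9, -1.88 ± 0.41 for RR2, -1.44 ± 0.23 for RR4 and -0.997 ± 0.353 for RR1 (log2, SE). RR6 (-0.38 ± 0.32) and RR5 (-1.65 ± 1.34) also had negative estimates, whose 95% intervals reached from -1.14 to 0.37 and from -4.79 to 1.50. Limma's model over all 8 arrays gave 0 of 6 members past an adjusted p of 0.05, against 0.183% of all 34333 probe sets tested, and 4 of 6 had an unadjusted p under 0.05, against 13.4% of all. Both no-nitrogen arrays lay below both supplemented arrays in each variety for 4 of 6 members, against 8.44% of all tested probe sets, and the opposite pattern was found for 0 of 6, against 7.52%. Within 1 variety the lower pattern held for the same 4 of 6 in Varadan, against 23.9% of all, and in Prasanna, against 17.7%. The median difference was -1.54 over the 6 tested members and -0.03 over all tested probe sets, and the members' median was -0.996 without no-nitrogen replicate 1 of Varadan.

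**Figure D1:**
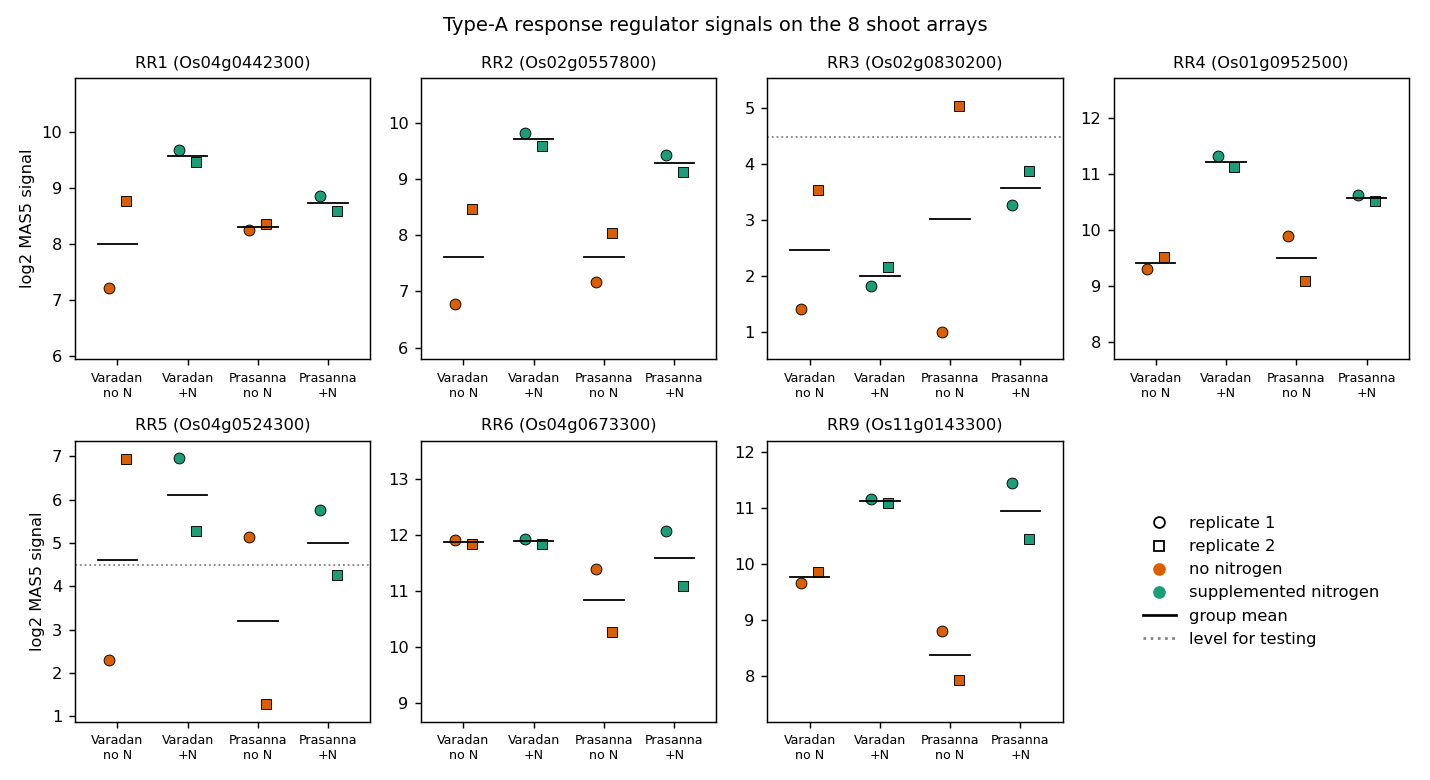
Log2 MAS5 signal (vertical axis, a 5 unit or wider window set for each panel) of each of the 7 members on each array, in Varadan and then Prasanna, without nitrogen (orange) left of supplemented nitrogen (green). Circles and squares are replicates 1 and 2, the bar is the group mean of 2 arrays and the dotted line, where it falls within a panel, is the level for testing. RR1, RR2, RR4 and RR9 have all orange points below the green points of the same variety, while RR3 and RR5 scatter across the groups.

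RR9 (Os11g0143300) is known in rice as a negative regulator of cytokinin responses that acts together with RR10, its close copy in a duplicated part of the genome. It read 9.67 and 9.86 in Varadan without nitrogen, against 11.17 and 11.08 in Varadan with supplemented nitrogen. In Prasanna it read 8.80 and 7.94 without nitrogen, against 11.44 and 10.45 with it. The 4 no-nitrogen arrays were the 4 lowest, and the Prasanna pair lay below the Varadan pair. Because RR9 and RR10 are near copies on chromosomes 11 and 12, the RR9 probe set may also pick up RR10 transcripts, and the 2 cannot be told apart here.

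The average difference of RR9 corresponds to a 3.91-fold lower signal without nitrogen (adjusted p = 0.072, limma). It had the 132nd smallest p of the 34333 probe sets. By variety it was -1.36 ± 0.43 in Varadan (adjusted p = 0.456, limma) and -2.57 ± 0.43 in Prasanna (adjusted p = 0.243, limma). The difference between these 2 effects was 1.21 ± 0.60, with a 95% interval from -0.20 to 2.63, and did not pass (unadjusted p = 0.0831, limma adjusted p = 1.0), and it ran from 0.71 to 1.71 with 1 array left out.

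RR4 (Os01g0952500) read 9.31 and 9.53 in Varadan without nitrogen, against 11.31 and 11.13 in Varadan with supplemented nitrogen. The Prasanna values were 9.90 and 9.09 without nitrogen, against 10.62 and 10.52 with it. No no-nitrogen array reached any supplemented array, and the replicates furthest apart, those of Prasanna without nitrogen, differed by 0.81. The average difference was a 2.71-fold lower signal (adjusted p = 0.0774, limma; 181st smallest p), at -1.80 ± 0.33 in Varadan and -1.07 ± 0.33 in Prasanna. Without no-nitrogen replicate 2 of Prasanna, the Prasanna effect was -0.67. The name of its probe set ends in s_at, which Affymetrix gives to probe sets that can match more than 1 transcript, so other transcripts may add to its signal.

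RR2 (Os02g0557800) is known in rice from crown root formation, where the homeobox factor WOX11 represses it. It read 6.77 and 8.47 in Varadan without nitrogen, against 9.82 and 9.60 in Varadan with supplemented nitrogen. In Prasanna its no-nitrogen signals were 7.17 and 8.04, against 9.43 and 9.13 with nitrogen. The groups did not overlap in either variety, and the first no-nitrogen array was the lower one in both, by 1.70 and 0.88. The average difference was a 3.69-fold lower signal (adjusted p = 0.135, limma), at -2.09 ± 0.58 in Varadan and -1.68 ± 0.58 in Prasanna. Without no-nitrogen replicate 1 of Varadan, the Varadan effect was -1.24.

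RR1 (Os04g0442300) is known in rice to bind the flowering regulator Ehd1, a type-B regulator, and to delay flowering when overexpressed. It read 7.22 and 8.76 in Varadan without nitrogen, against 9.67 and 9.47 in Varadan with supplemented nitrogen. Prasanna shoots gave 8.25 and 8.36 without nitrogen, against 8.86 and 8.58 with it. The groups did not overlap in either variety, though in Prasanna the gap between them was smaller than the spread between the supplemented arrays. The adjusted p of its average difference was 0.302 (limma). Its effect was -1.58 ± 0.50 in Varadan and -0.42 ± 0.50 in Prasanna, and the difference of the effects was -1.16 ± 0.71, with a 95% interval from -2.82 to 0.50 (limma adjusted p = 1.0). Without no-nitrogen replicate 1 of Varadan, the lower of its pair, the average of RR1 was -0.61, its effect in Varadan -0.81 and the difference of the effects -0.39.

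RR6 (Os04g0673300) is known from rice plants that overexpress it, which respond poorly to cytokinin. It read 11.90 and 11.83 in Varadan without nitrogen, against 11.92 and 11.84 in Varadan with supplemented nitrogen. In Prasanna it read 11.40 and 10.26 without nitrogen, against 12.07 and 11.09 with it. The Varadan arrays were nearly level, whereas the Prasanna groups overlapped and replicates there differed by 1.13 without nitrogen and 0.98 with it. The effect was -0.01 ± 0.45 in Varadan, with a 95% interval from -1.08 to 1.06, and -0.75 ± 0.45 in Prasanna, with an interval from -1.82 to 0.32. With 1 array left out, the Prasanna effect of RR6 ran from -1.32 to -0.18.

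RR5 (Os04g0524300) and RR3 (Os02g0830200) had dim signals. RR5 read 2.30 and 6.93 in Varadan without nitrogen, against 6.95 and 5.28 in Varadan with supplemented nitrogen. The Prasanna values were 5.14 and 1.27 without nitrogen, against 5.76 and 4.25 with it. The groups overlapped in both varieties, replicates differed by up to 4.64, and 3 of the 8 values lay below the level for testing. RR3 read 1.41 and 3.54 in Varadan without nitrogen, against 1.84 and 2.17 in Varadan with supplemented nitrogen. In Prasanna its no-nitrogen signals were 1.01 and 5.04, against 3.27 and 3.89 with nitrogen. Only 1 of its 8 values was above the level for testing. In the fit with no filter on dim probe sets, the average difference of RR3 was -0.04 ± 1.11 (SE; limma adjusted p = 0.994).

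**Figure D2:**
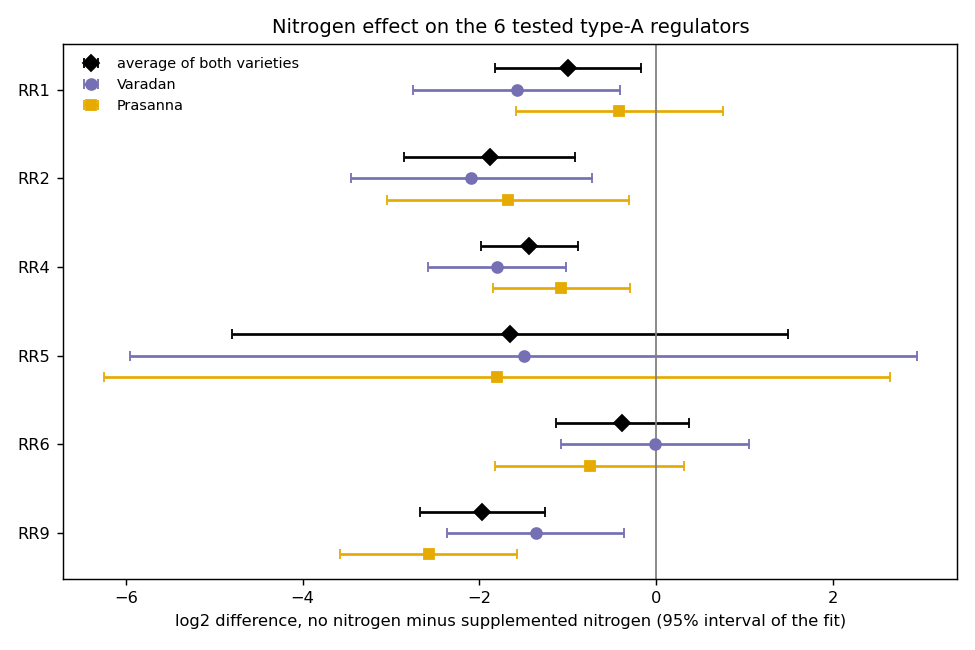
Log2 difference, no nitrogen minus supplemented nitrogen (horizontal axis), of the 6 tested members, as the average of both varieties (diamonds), in Varadan (circles) and in Prasanna (squares), with 95% intervals of the limma fit. The average lies between -1.97 and -0.997 for RR1, RR2, RR4 and RR9, RR6 stands near 0 in Varadan, and RR5 has intervals that span 0 widely.

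The order of the 4 groups differed among the members. For RR9, Varadan without nitrogen (9.76 ± 0.14, SD, n = 2) lay above Prasanna without nitrogen (8.37 ± 0.61), and both lay below the supplemented groups, which overlapped at 11.12 ± 0.06 in Varadan and 10.94 ± 0.70 in Prasanna. For RR4 the no-nitrogen groups overlapped at 9.42 ± 0.16 in Varadan and 9.50 ± 0.57 in Prasanna, below 11.22 ± 0.13 in Varadan and 10.57 ± 0.07 in Prasanna with supplemented nitrogen. For RR2 the no-nitrogen groups also overlapped, at 7.62 ± 1.20 in Varadan and 7.61 ± 0.62 in Prasanna, and the supplemented groups stood at 9.71 ± 0.16 in Varadan and 9.28 ± 0.21 in Prasanna. For RR1 the no-nitrogen groups overlapped once more, at 7.99 ± 1.09 in Varadan and 8.30 ± 0.08 in Prasanna, and the supplemented groups stood at 9.57 ± 0.15 in Varadan and 8.72 ± 0.20 in Prasanna. RR6 had its lowest mean in Prasanna without nitrogen (10.83 ± 0.80), whose arrays overlapped those of Prasanna with supplemented nitrogen (11.58 ± 0.69). The latter also overlapped both Varadan groups. These stood at 11.87 ± 0.05 without nitrogen and 11.88 ± 0.05 with supplemented nitrogen, and overlapped each other. RR5 had group means between 3.21 and 6.11 whose arrays overlapped throughout except for Varadan with supplemented nitrogen against Prasanna without it.

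Within single varieties 0 of 6 members passed in limma, in Varadan against 0.00291% of all tested probe sets and in Prasanna against 0%. Unadjusted p was under 0.05 for RR1, RR2, RR4 and RR9 in Varadan, where 8.94% of all probe sets had such a p, and for RR2, RR4 and RR9 in Prasanna, where 6.63% had one. The median of the members was -1.54 in Varadan and -1.37 in Prasanna, and that of all tested probe sets was -0.06 in Varadan and -0.0033 in Prasanna. Without no-nitrogen replicate 1 the members' median in Varadan was -1.02, and without no-nitrogen replicate 2 that in Prasanna was -0.57. The average effect is built from these same arrays, as are the comparisons between the varieties, so none of them is separate evidence. For the difference of the effects between the varieties 0 of 6 passed and none had an unadjusted p under 0.05, against 0% called and 2.08% with such a p among all probe sets.

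Between the varieties, RR9 and RR6 without nitrogen and RR1, RR2 and RR4 with supplemented nitrogen had both Varadan arrays above both Prasanna arrays. Such a pattern was found for 13.1% of all probe sets without nitrogen and for 23.5% with it. Without nitrogen the Varadan minus Prasanna difference was 1.39 ± 0.43 for RR9 (adjusted p = 0.428, limma) and 1.04 ± 0.45 for RR6 (adjusted p = 0.811, limma), the RR6 value being 0.47 without no-nitrogen replicate 2 of Prasanna. It lay between -0.31 and 0.01 for RR1, RR2 and RR4, and the scattered RR5 had 1.41 ± 1.90. With supplemented nitrogen it was 0.85 ± 0.50 for RR1, 0.65 ± 0.33 for RR4, 0.43 ± 0.58 for RR2, 0.30 ± 0.45 for RR6, 0.18 ± 0.43 for RR9 and 1.11 ± 1.90 for RR5. No member passed in either comparison, where limma called 0.763% of all probe sets without nitrogen and 0.693% with it. Without nitrogen 1 of 6 members, RR9, had an unadjusted limma p under 0.05, against 6.36% of all probe sets. With supplemented nitrogen the count was 0 of 6, against 7.69%.

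With replicate 1 of both no-nitrogen groups left out, 3 of the 6 members passed for the average effect. These were RR9 at -2.14 (adjusted p = 0.0115, limma), RR4 at -1.58 (adjusted p = 0.00674, limma) and RR2 at -1.24 (adjusted p = 0.0373, limma), while RR1 stood at -0.58 (adjusted p = 0.275, limma). In that fit each no-nitrogen group holds 1 array that is assumed to vary like the supplemented arrays, and 1202 of all probe sets passed in place of 63. RR9 in Prasanna and RR4 in Varadan passed there as well, at -3.01 and -1.69 (adjusted p = 0.0284 and 0.0391, limma), in a fit where 296 of all probe sets passed in Prasanna in place of 0 and 370 in Varadan in place of 1. The opposite choice, leaving out replicate 2 of both no-nitrogen groups, was not run, and nothing here marks replicate 1 as the faulty one. Leaving out any single array gave 0 members past the threshold for the average effect.

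Other measures were taken from the same arrays. The 4 measured leaf markers were the Rubisco small subunit RBCS, the light-harvesting proteins CAB2R and RCABP69 and the plastid glutamine synthetase GS2. Their log2 summed signal was 16.71 to 17.80 on the no-nitrogen arrays against 17.84 to 18.58 on the supplemented ones. On average 4 of 4 were lower, with 0 past the threshold. Limma's unadjusted p was under 0.05 for each, against 13.4% of all probe sets. By variety such a p was found for 3 of 4 in Varadan, against 8.94% of all, and for 0 of 4 in Prasanna, against 6.63%. The summed signal of 5 root markers was 10.11 to 10.99 against 10.32 to 10.61, with the silicon transporter Lsi2 below the level for testing, and that of 6 meristem and shoot base markers was 11.14 to 11.83 against 11.36 to 12.04. The bacterial bioB, bioC and bioD hybridisation controls do not come from the plant. They averaged 10.98 without nitrogen and 11.82 with it, a difference of -0.84. Their array values ran from 10.80 to 11.21 without nitrogen and from 11.09 to 12.46 with it. The 18S ribosomal RNA probe set averaged 14.11 and 13.41, a difference of 0.69. Its array values ran from 13.26 to 15.49 and from 12.85 to 14.18, with replicate 1 above replicate 2 in each group. Pooled over the varieties, both controls overlapped between the no-nitrogen and supplemented arrays. Within each variety, however, the bacterial controls were lower on both no-nitrogen arrays than on both supplemented ones, the pattern of RR1, RR2, RR4 and RR9. They read 11.05 and 10.86 against 11.91 and 11.09 in Prasanna, and 10.80 and 11.21 against 12.46 and 11.82 in Varadan. The 18S values overlapped within each variety. The average differences of the 6 tested members lay between -1.97 and -0.38. The part of tissue makeup, brightness or RNA quality in the member results was not tested. In whole shoots, fewer cells of a type and less RNA per cell cannot be told apart.

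**Figure D3:**
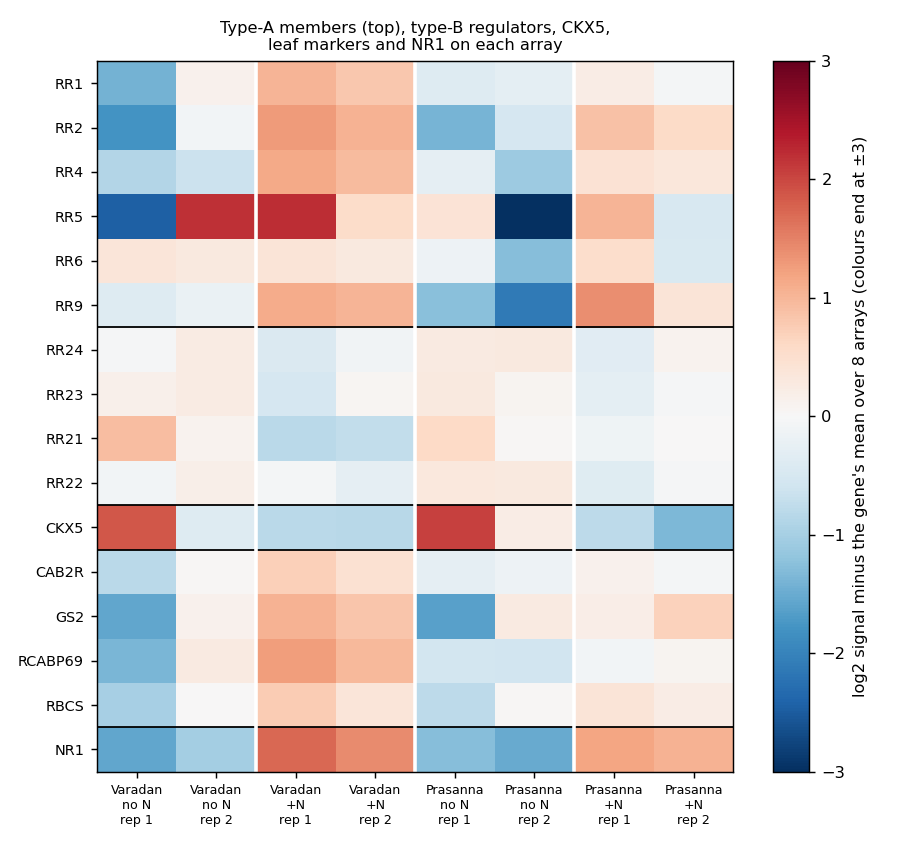
Log2 signal minus the gene's own mean over the 8 arrays, as colour from blue (lower) to red (higher), for the 6 tested members, 4 type-B regulators, the cytokinin oxidase CKX5, 4 leaf markers and NR1 (rows) on each array (columns, Varadan then Prasanna, without nitrogen left of supplemented nitrogen). RR1, RR2, RR4 and RR9 are lower on the no-nitrogen arrays of each variety, RR21, RR23 and RR24 are higher there, and the dim RR5 changes between replicates, with 1 value beyond the end of the colour scale.

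Among themselves the members followed each other unequally over the 8 arrays. Pearson's r was 0.907 between RR1 and RR2, 0.842 between RR4 and RR9 and 0.826 between RR2 and RR4, against 0.222 between RR1 and RR6 and 0.241 between RR2 and RR6. RR6 was closest to RR9 (0.759). These values describe 8 arrays that share 4 groups and a common scaling. The replicate differences also split the family. On the first Varadan array without nitrogen RR1 and RR2 were lower than on the second by 1.54 and 1.70, while RR4 and RR9 differed there by 0.22 and 0.19, and on the first Prasanna array without nitrogen RR2 was lower by 0.88 but RR4, RR6 and RR9 were higher by 0.81, 1.13 and 0.86.

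The other genes of the pathway came from a list of receptors, phosphotransfer proteins, further response regulators and enzymes that make or break down cytokinin, of which 33 had a probe set and 30 were tested. The only synthesis genes matched by name were LOG enzymes. No isopentenyltransferase or CYP735A gene was matched, so those steps of cytokinin synthesis have no values here. CKX6, CKX7, CKX8 and CKX10 were not matched either. Of these 30, 0 passed for the average nitrogen effect (limma, against 0.183% of all probe sets), and 5 had an unadjusted p under 0.05, against 13.4% of all. Without nitrogen 16 of the 30 estimates were higher and 14 lower, with a median of 0.05. All 4 tested type-B regulators, the DNA-binding activators upstream of the type-A genes, had estimates above 0, with a median of 0.39. RR25, a type-B regulator too dim for testing, had lower means without nitrogen than with it. These were 0.54 against 3.06 in Varadan and, with overlapping arrays, 4.64 against 4.97 in Prasanna. RR21 stood at 0.83 ± 0.24 (adjusted p = 0.24, limma), with 12.68 and 11.86 in Varadan without nitrogen, against 10.96 and 11.02 in Varadan with supplemented nitrogen. Prasanna shoots gave 12.34 and 11.80 without nitrogen, against 11.64 and 11.76 with it. The other tested type-B regulators, named after their values were seen, were RR24 at 0.40 ± 0.20, RR23 at 0.39 ± 0.21 and RR22 at 0.36 ± 0.19.

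Of the cytokinin dehydrogenases, which degrade the hormone, CKX5 had the smallest p, at 1.88 ± 0.59 (adjusted p = 0.257, limma). It read 9.62 and 7.37 in Varadan without nitrogen, against 6.96 and 6.92 in Varadan with supplemented nitrogen. The Prasanna values were 9.81 and 7.99 without nitrogen, against 6.98 and 6.41 with it. Both no-nitrogen arrays lay above both supplemented arrays in each variety, a pattern found for 7.52% of all tested probe sets. The first no-nitrogen array was far higher than the second. Among 9 tested LOG enzymes, which release the active hormone, LOGL10 stood at 0.70 ± 0.26 (adjusted p = 0.318, limma). Among 4 tested receptor-type kinases, the cytokinin receptor HK4 stood at -0.66 ± 0.26 (adjusted p = 0.329, limma). Among 4 tested phosphotransfer proteins and pseudo forms, of which the pseudo forms lack the phosphate-accepting histidine, AHP1 had the smallest p at 0.24 ± 0.23 (adjusted p = 0.663, limma). Of 2 further type-A genes, RR11 stood at -1.20 ± 1.02 (adjusted p = 0.622, limma), with dim array values from 2.08 to 6.27. The other, RR13, stood at -0.09 ± 0.64, with 0.69 in Prasanna and -0.87 in Varadan.

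**Figure D4:**
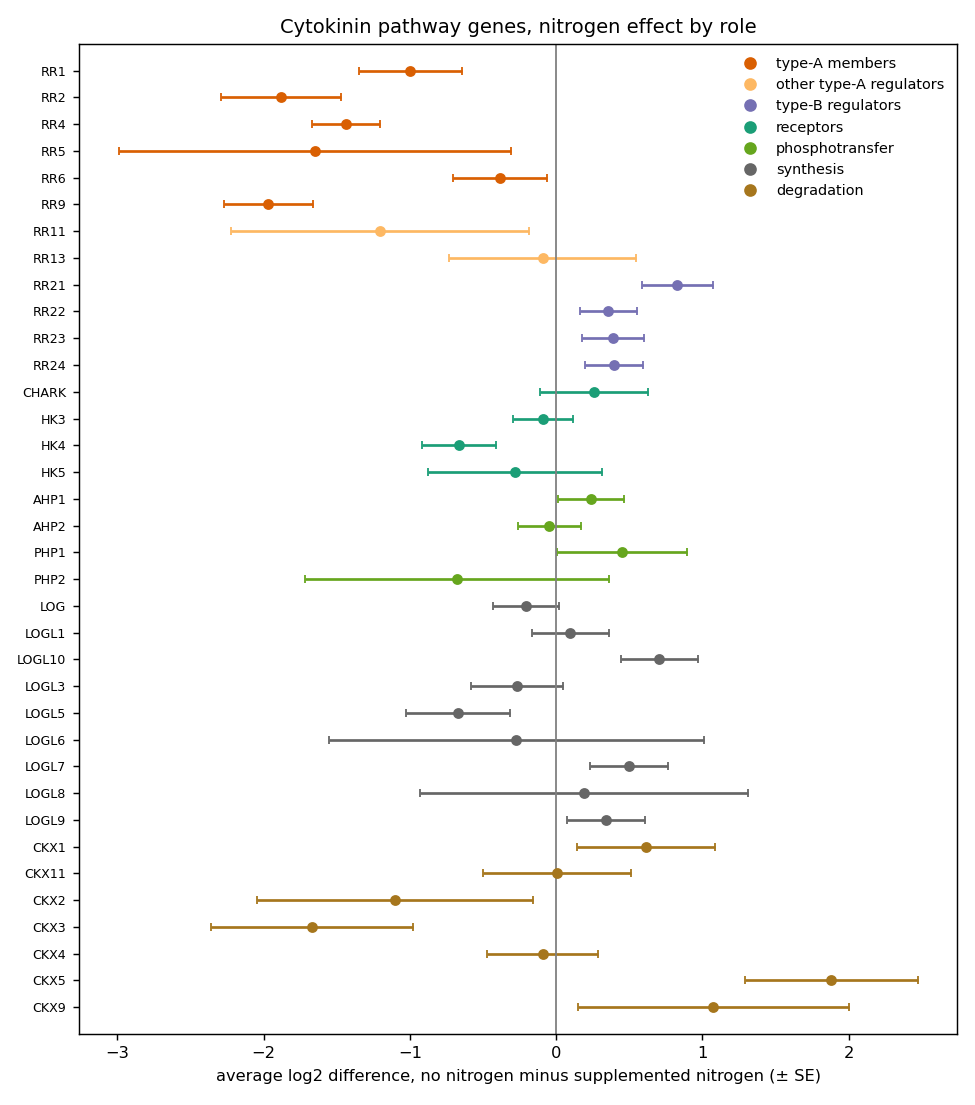
Average log2 difference, no nitrogen minus supplemented nitrogen, with its SE (horizontal axis), for the 6 tested members and the 30 other tested cytokinin genes, coloured by role. The members and the 2 further type-A genes lie left of 0, though RR13 is close to 0. The 4 tested type-B regulators lie right of 0 and the other roles on both sides, and no gene shown passed the threshold.

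The loci most like the members were sought by Pearson's r over the 8 arrays with the mean of the 6 tested members, each centred on its own mean, among 21504 other tested loci. The highest were Os03g0675700 (r = 0.993), Os06g0257200 (0.989), Os11g0294300 (0.979), Os01g0270700 (0.966) and Os01g0973400 (0.962). The most opposite were Os02g0321800 (-0.984), Os05g0421300 (-0.969), Os06g0585200 (-0.958), Os05g0585500 (-0.950) and Os04g0440100 (-0.947). The average nitrogen effect of these 10 loci lay between -2.35 and 0.58, and none passed the threshold. The smallest adjusted p in limma was that of Os01g0973400 (-0.88 ± 0.21, adjusted p = 0.159). RR5, the most scattered member, weighs heavily in that mean, and 56 loci had an r above 0.9 and 59 below -0.9.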

How the data were processed

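Per the submitters' processing notes, MAS5 (no version stated) made 1 signal per probe set on each of the 8 rice arrays. Per the file headers, 1 deposited table gives log2 values of 57381 probe sets. A second deposited table holds the same signals as linear intensity, and its log2 differed by at most 3.0e-08. The authors' scaling set the mean of each array, trimmed by 2% at each end, to 500.0. MAS5 gives dim probe sets a large spread, no detection calls were used, and precision is limited by the 2 arrays per group.

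The 187 control probe sets were left out. Testing took the probe sets whose mean log2 reached the 40th percentile, in limma 3.58.1 in R 4.3.3 (1 mean per group, lmFit, eBayes with trend, 4 residual degrees of freedom, 2-sided), with Benjamini-Hochberg adjustment over all 34333 within each of 6 comparisons and a threshold of 0.05. The fit was tested on simulated data. Genes were named by locus, and pathway and marker genes by RefSeq symbols and synonyms (assembly ASM3414082v1), matched through gene IDs, with the brightest probe set per locus. The gene IDs of all 7 members were found there. Named were all members, the pathway gene with the smallest p per role, the 5 loci most like and most unlike the members, and NR1. Members, lists and alternatives were chosen with earlier results of these data known. Sequences, promoters and coordinates were not used here.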

Additional observations from a re-analysis of the deposited data

How the results depend on the processing

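The 6 comparisons were recomputed under 16 alternatives: no filter, a filter at the 60th percentile (where RR5 was not tested), quantile normalization, no trend in the variance prior, array weights, a replicate block, the linear table, each array left out in turn, and both first no-nitrogen arrays left out. The lowest-mean probe set of a locus was not run, since each member has 1. Of 570 values of single members, 542 kept direction and side of the threshold, 6 newly passed and 22 turned sign, and the cause was not tested. The average effect stayed negative for all 6 members, between -2.22 and -1.72 for RR9, -1.64 and -1.23 for RR4, -2.31 and -1.24 for RR2, -1.38 and -0.58 for RR1, -0.68 and -0.10 for RR6 and -2.81 and -0.49 for RR5. Members past the threshold (0 of 6 as reported, and 0 to 0 with each array left out) were 1 with the replicate block (RR9, limma adjusted p = 0.0449) and 3 without both first arrays for the average, and 1 (RR9) in Prasanna and 1 (RR4) in Varadan without both. Labels do not say that replicate numbers pair arrays, and replicate deviations correlated at 0.46 between the no-nitrogen groups and from -0.04 to 0.11 otherwise. With both first arrays left out, the sign turned for RR5 in Varadan (0.82) and, for Varadan minus Prasanna without nitrogen, for RR1 (0.41) and RR4 (0.43). With 1 array left out, the estimates that turned sign ranged as follows. RR5 ran from -3.74 to 0.14 in Prasanna (positive without no-nitrogen replicate 2), from -3.82 to 0.82 in Varadan (positive without no-nitrogen replicate 1) and from -2.02 to 2.62 for the difference. RR6 in Varadan ran from -0.050 to 0.026, and the RR2 difference from -1.27 to 0.44. Varadan minus Prasanna without nitrogen ran from -1.08 to 0.46 for RR1, -0.84 to 0.86 for RR2, -0.49 to 0.32 for RR4 and -0.91 to 3.73 for RR5. With supplemented nitrogen it ran from -0.19 to 0.79 for RR6 and -0.32 to 0.68 for RR9, negative without Prasanna replicate 2. Probe sets called for the average, 63 as reported, numbered 1 without the trend, 120 with array weights, 150 with the replicate block, 0 to 84 with 1 array left out and 1202 without both first arrays. For Varadan against Prasanna, 262 without nitrogen became 173 with the stricter filter, 155 with array weights and 158 to 194 with 1 array left out, and 238 with nitrogen became 129, 572 and 42 to 278. Without both first arrays 296 passed in Prasanna in place of 0, 370 in Varadan in place of 1, and 739 for the varieties with nitrogen.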

Other observations

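CKX3, a cytokinin dehydrogenase chosen after its values were seen, stood on the other side from CKX5. It read 5.71 and 3.09 in Varadan without nitrogen, against 7.40 and 7.28 in Varadan with supplemented nitrogen. Prasanna arrays overlapped, at 5.43 and 7.16 without nitrogen, against 6.28 and 7.10 with nitrogen. Its average difference was -1.67 ± 0.69 (SE; limma adjusted p = 0.359), and CKX3 and CKX5 were the 2 of 7 tested dehydrogenases with an unadjusted p under 0.05.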
